A study of Oryza sativa Indica Group with 6 samples.

Results

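Transcripts that peaked or dipped for a single stage of rice pollen development, the bicellular stage, were described here by a fixed rule on array levels. A probe set was called a transient peak where its mean log2 level in bicellular pollen (BCP) was at least 2, a 4-fold difference, above the means of both uninucleate microspores (UNM) and tricellular pollen (TCP), and a transient dip where it was at least 2 below both. The rule gave 651 peak probe sets (1.14%) and 94 dip probe sets (0.164%) of the 57194 tested. Of these, 449 peak and 76 dip probe sets have a single gene in the annotation, for 424 genes with a peak and 72 genes with a dip, and 0 genes had both. The other 202 peak and 18 dip probe sets have no single gene.

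The study followed the male gametophyte of rice of the Indica Group of Oryza sativa, variety Guichao No.2 grown in the field, through 3 stages. UNM, BCP and TCP are labelled Pa, Pb and Pc, and each stage has 2 biological replicates, each hybridised to 1 array. No mutation, transgene or treatment is labelled in any group, and the number of plants behind a sample is not given in the sources used here. Levels are log2 signals per probe set, so a difference of 1 is a doubling of signal.

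In rice anthers, a microspore divides unequally into a large vegetative cell and a small generative cell, which gives bicellular pollen, and the generative cell then divides into the sperm cells of tricellular pollen. Bicellular pollen is known as the stage at which the vegetative cell fills with starch, made from ADP-glucose inside plastids. The generative cell replicates its DNA and enters its own mitosis in the same period, so genes of cell division, plastid metabolism and storage are all of interest at this stage.

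Replicate arrays correlated at r = 0.992 for UNM, 0.993 for BCP and 0.985 for TCP over all tested probe sets. The 64 reporter probe sets, which target no rice gene, gave a working background, taken as their 95th percentile, with stage means of 5.11 in UNM, 5.65 in BCP and 5.78 in TCP. A level at or under it was read only as a bound, and folds against it are then given as "at least". Some planned marker genes of the vegetative cell were higher in BCP and TCP than in UNM. The beta-expansin EXPB9 had mean levels of 4.24 in UNM, 12.90 in BCP and 13.04 in TCP, and the actin-depolymerising factor ADF-9 had 3.94, 12.13 and 12.50. Of the other planned markers, GBSS-I is described below, and levels of actin, EXPB10, OsRac6 and PRF are not given here. The 11 measured anther wall (tapetum) genes had a mean level of 7.74 on each UNM array, of 4.30 and 4.39 in BCP and of 4.28 on each TCP array. C6, a tapetal lipid transfer protein, was at 10.84 and 10.80 in UNM and under the reporter level on all BCP and TCP arrays. The 11 measured green tissue genes had median levels of 5.27, 4.69 and 4.56, of which the chlorophyll-binding protein gene CAB2R had 11.35, 4.55 and 3.94. The 3-prime minus middle signal of the actin control, a measure of RNA integrity, was 3.06 and 3.15 in UNM against 1.81 to 1.93 in BCP and TCP. The GAPDH control gave another order, with 1.29 and 0.71 in UNM, 1.10 and 0.91 in BCP and 1.60 and 1.51 in TCP. The part of these differences in the results was not tested, and in bulk samples fewer cells of a type and less RNA per cell cannot be told apart.

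Against the average of both other stages, more probe sets were higher in BCP than lower. In a limma fit of all 6 arrays, 5742 probe sets were higher (10.04%) and 3784 lower (6.62%), at a Benjamini-Hochberg adjusted p under 0.05 and a difference of at least 1. Higher levels therefore made up 60.3% of the 9526 calls, and 77.9% when arrays were scaled by the hybridization control spikes instead. That scaling moved the median difference over all probe sets from -0.06 to 0.33 against the average and from -0.14 to 0.87 against TCP alone. With it 8187 probe sets were called higher and 2318 lower, and 886 were peaks and 75 dips. Counts of gene lists under that scaling, given below, stand beside these totals. The shares over all genes given with the lists are from the unscaled fit. The contrast with the average also takes in probe sets that change steadily from UNM to TCP. Of the higher calls, 4337 had a BCP mean above both other means and 1405 a BCP mean between them. In separate tests against each stage, 2307 probe sets were above both (4.03%) and 498 below both (0.871%). The p-values measure the spread between the 2 arrays per stage, and that number limits the precision.

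**Figure D1:**
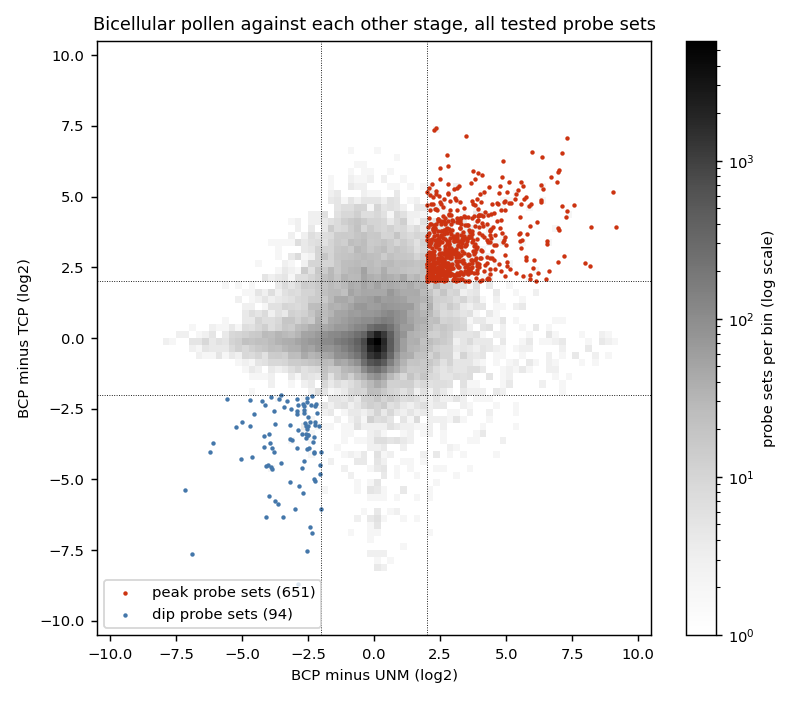
Difference between BCP and UNM (horizontal axis, log2) against the difference between BCP and TCP (vertical axis, log2) for all 57194 tested probe sets, shaded by the number of probe sets per bin on a log scale, with peak and dip probe sets as coloured points. The 651 peaks lie at 2 or more on both axes and the 94 dips at -2 or less on both.

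All 651 peaks and all 94 dips also passed both pairwise tests and had both BCP arrays beyond all 4 other arrays, and nothing is read from this, because the rule used the same differences. The smaller of a member's differences from UNM and TCP is called its margin here. Margins of peaks had a median of 2.56 and reached 7.09, with 192 of at least 3 and 59 of at least 4. Margins of dips had a median of 2.57 and reached 6.90, with 29 of at least 3 and 8 of at least 4. Closest to the threshold on the inner side among named peak genes, taken by their brightest probe set, were OsSig2B, a plastid sigma factor, and DPNPase, a nucleotidase, each with a margin of 2.01. OsSig2B was under the reporter level in UNM and TCP and at least 2.57-fold and 1.61-fold higher in BCP. Just outside were the brightest probe set of HAK10, a potassium transporter, which missed the threshold by less than its second decimal place at 2.00, and VTE4, a tocopherol methyltransferase, at 1.99. Among dips, CML15 and LOG were just inside at 2.10 and 2.18, and the aquaporin OsSIP2;1 and the kinesin KIN7K were just outside at 1.99 and 1.89.

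Many peaks were near background outside BCP. Their median level was 5.56 in UNM, 9.00 in BCP and 5.54 in TCP. For 218 of the 651 peaks both other stages were at or under the reporter level, and for 241 both were above it. In 8 peaks the BCP mean itself was at or under that level. Dips were the reverse, with median levels of 8.48 in UNM, 4.93 in BCP and 8.87 in TCP. All 94 were above the reporter level in both other stages, and 65 were at or under it in BCP. The comparison of TCP with UNM called 113 peaks higher in TCP (17.4%) and 112 lower (17.2%), beside 12.1% and 17.9% of all tested probe sets. Of the dips, 28 were higher in TCP than in UNM (29.8%) and 16 lower (17.0%). Nothing is read from these shares, because the rule used the same UNM and TCP means. All tested probe sets are also an unlike base, with median levels of 4.59 in UNM and 4.72 in TCP, under the reporter level.

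**Figure D2:**
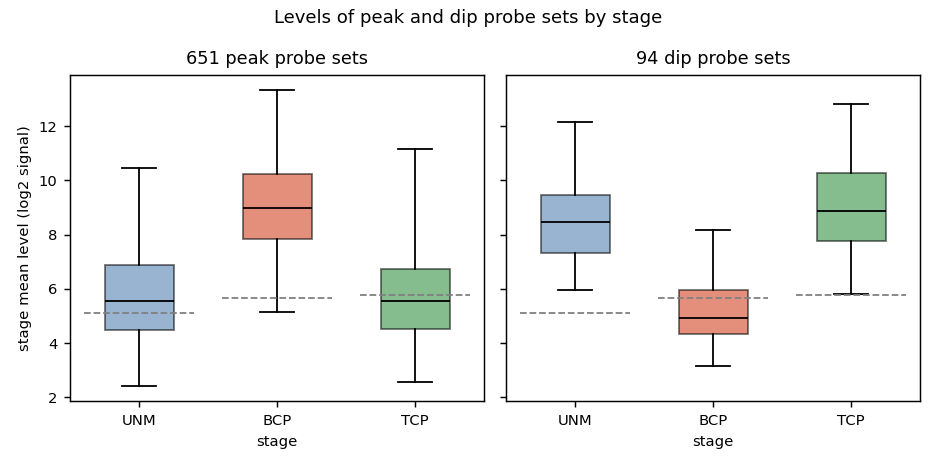
Stage mean levels (log2 signal, vertical axis) of the 651 peak and 94 dip probe sets by stage, as boxes from the lower to the upper quartile with the median as a line and whiskers to the lowest and highest value; dashed lines are the reporter level of each stage. The median of the peaks was 9.00 in BCP against 5.56 and 5.54 in UNM and TCP, and that of the dips 4.93 in BCP against 8.48 and 8.87.

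The largest members have no name in the annotation. Gene 4341498, measured by probe set Os.56057.1.S1_at, was at 2.89 and 3.14 in UNM, 10.32 and 10.35 in BCP, and 3.10 and 3.40 in TCP. It was thus under the reporter level on all UNM and TCP arrays and at least 37.4-fold and 23.5-fold higher in BCP. A second probe set of the gene, Os.56057.1.S1_x_at, gave a margin of 6.53. The largest dip, probe set Os.4773.1.S1_at with no gene in the annotation, was at 11.40 and 11.27 in UNM, 4.44 and 4.42 in BCP, and 12.10 and 12.07 in TCP. Its signal in BCP was at least 51.3-fold lower than in UNM and at least 86.3-fold lower than in TCP. Gene 4332420 had the next largest dip, with a margin of 5.38 on a probe set that several transcripts share.

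Starch synthesis genes included the named peak with the largest margin. SSI, a soluble starch synthase that extends short amylopectin chains, was at 6.12 and 6.33 in UNM, 11.17 and 11.21 in BCP, and 6.64 and 6.70 in TCP. Both BCP arrays stood far above the rest, by 31.4-fold over UNM (log2 difference 4.97, SE 0.13) and 23.0-fold over TCP (4.52, SE 0.13), the largest margin among named genes taken by their brightest probe set. AGPS2, the small subunit of ADP-glucose pyrophosphorylase that makes the ADP-glucose substrate, was at 5.72 and 5.64, then 11.39 and 11.45, then 8.57 and 8.53. It was 53.3-fold higher in BCP than in UNM and 7.30-fold higher than in TCP. Unlike that of SSI, its TCP level stayed well above its UNM level, by 2.87 (limma adjusted p = 1.2e-06). For SSI the TCP level was 0.45 above UNM (adjusted p = 0.024), under the minimum of 1 for a call.

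GBSS-I, the granule-bound starch synthase (waxy) that makes amylose, was a peak on 3 of its 6 probe sets. Probe set Os.11244.1.S1_at was at 5.54 and 5.51 in UNM, 12.52 and 12.51 in BCP, and 8.45 and 8.97 in TCP, which is 127-fold over UNM and a log2 difference of 3.81 from TCP. The brightest probe set of GBSS-I, Os.11244.3.S1_x_at, disagreed about TCP: it was at 3.44 and 3.61, then 12.22 and 12.23, then 11.35 and 11.29, and its margin of 0.90 kept it out. All 4 of these probe sets showed BCP far above UNM, whereas the fall by TCP differed from probe set to probe set. The remaining 2 probe sets of GBSS-I stayed under the reporter level of every stage.

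Of the 7 measured starch synthesis genes, each by its brightest probe set, 3 were higher than the average of both other stages (20.7% of all 17905 genes) and 0 lower (12.9%), 2 were above both by test (7.69%), and the same 2 were peaks (2.17%). The list's median difference from the average was 0.73, beside -0.02 over all genes. The starch branching enzyme SBE had its highest level in TCP, at 12.08 and 12.10 against 11.60 and 11.56 in BCP and 9.65 and 9.57 in UNM. SSII-3, a soluble starch synthase also known as ALK, was at 8.28 and 8.44, then 8.06 and 7.84, then 8.45 and 8.19. Starch genes thus ranged from a sharp single-stage peak (SSI) to stage means within 0.41 of each other (SSII-3).

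**Figure D3:**
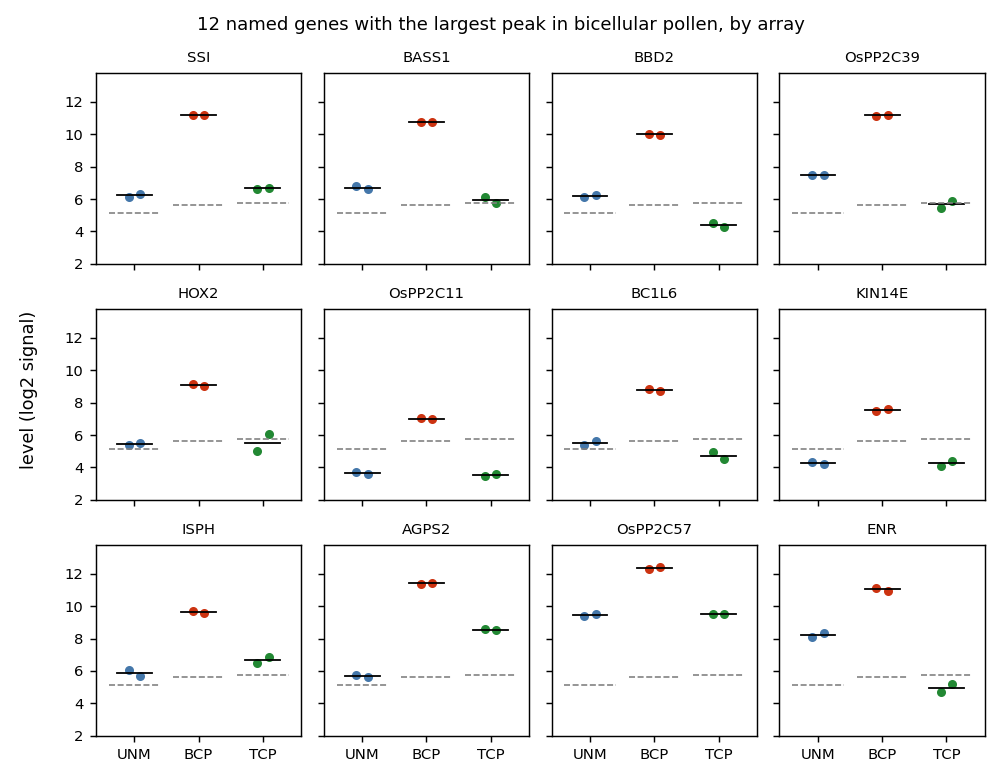
Levels (log2 signal, vertical axis) of the 12 named genes with the largest peaks, by stage, with 1 point per array, the mean as a black bar and the reporter level of the stage as a dashed line. In every panel both BCP points lie above all 4 other points, and for genes such as KIN14E and OsPP2C11 the other stages lie under the reporter level.

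Peaks in transport and synthesis of plastid metabolites included several related genes. BASS1, of the family named for bile acid sodium symporters, whose plant members are carriers of the plastid envelope, was at 6.78 and 6.61 in UNM, 10.77 and 10.75 in BCP, and 6.12 and 5.78 in TCP, 16.7-fold and 28.0-fold higher in BCP. Its relative BASS4 was at 5.86 and 6.45, then 9.01 and 9.00, then 6.58 and 6.53. BASS2, known from other plants as a sodium-dependent pyruvate carrier, was a peak on probe set Os.5457.1.S1_at, at 8.12 and 7.80, then 10.87 and 10.86, then 6.77 and 6.87. Its brightest probe set gave a smaller margin of 1.46, and the other 2 probe sets of BASS1 were not members. BASS3 and BASS5 were not members, and BASS5 was at 8.17 and 8.33 in UNM, 8.34 and 8.06 in BCP, and 5.93 and 5.63 in TCP. Of the 5 measured genes of the family 4 were higher than the average (20.7% of all genes), 3 were above both by test (7.69%) and 2 were peaks (2.17%), with a median difference of 1.75. This list was formed after the names of the members had been seen.

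Among 20 measured genes of plastid isoprenoids and pigments, 3 were peaks (2.17% of all genes), 4 were above both by test (7.69%), and 6 were higher and 2 lower than the average (20.7% and 12.9%), with a median difference of 0.03. This list, too, was formed after the members' names had been seen. ISPH, the last enzyme of the plastid isoprenoid precursor pathway, was at 6.04 and 5.69 in UNM, 9.73 and 9.60 in BCP, and 6.52 and 6.85 in TCP, 13.9-fold and 7.89-fold higher in BCP. OsPSY2, a phytoene synthase that starts carotenoid synthesis, was at 5.77 and 5.47, then at a mean of 10.02 in BCP, then at 7.33 and 7.85. CHLD, a subunit of the magnesium chelatase of chlorophyll synthesis, was at 7.09 and 7.18, then 9.82 and 10.14, then 7.37 and 7.58. The partners of these enzymes did not share the pattern. ISPG and ISPF, which act before ISPH, were highest in UNM, at 7.09 and 6.95 and at 5.78 and 5.73. OsPSY1 was highest in TCP, at 8.29 and 8.28, and OsPSY3 in UNM, at 6.96 and 6.75. CHLH and CHL9, the other subunits of the chelatase, were under the reporter level in BCP.

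In the pathway to aromatic amino acids, peaks were found at the entry step and at the start of the tryptophan branch. DAHPS1, which opens the shikimate pathway, was at 6.85 and 7.04 in UNM, 12.56 and 12.59 in BCP, and 10.37 and 10.39 in TCP, a 49.5-fold and 4.58-fold difference. ASA1, the alpha subunit of anthranilate synthase at the start of the tryptophan branch, was at 9.52 and 9.81, then 11.97 and 12.04, then 4.71 and 4.45. It was 5.06-fold higher in BCP than in UNM and at least 74.8-fold higher than in TCP, where both arrays were under the reporter level. ASB2, a beta subunit of the same enzyme, was at 7.46 and 7.57, then 9.73 and 9.65, then 7.26 and 7.34. The other beta subunit gene, ASB1, was above both stages by test without being a member, at 9.45 and 9.64, then 10.91 and 10.67, then 6.89 and 6.37.

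The paralogs of DAHPS1 and ASA1 had other patterns. DAHPS2 was highest in UNM, at 9.92 and 9.85 against 9.16 and 9.13 in BCP and 7.10 and 7.14 in TCP. ASA2 was at 6.94 on both UNM arrays and under the reporter level on all others. The shikimate kinase genes OsSK1, OsSK2 and OsSK3 were not members. TDC2, whose role is not settled by the annotation, was the fourth peak of the list, at 7.33 and 7.29, then 9.58 and 9.49, then 7.08 and 7.28. Of the 10 measured genes, chosen as a list after the members' names were known, 7 were higher (20.7% of all genes) and 1 lower than the average (12.9%), 5 were above both by test (7.69%) and 4 were peaks (2.17%), with a median difference of 2.02. ASB2 and TDC2 fell just under the rule's threshold against UNM, at 1.94 and 1.99, when arrays were scaled by the hybridization controls.

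Among cell division genes, a mitotic cyclin and 2 microtubule motors were peaks, and a subunit of the replication helicase, 2 histone H2B genes and a cell cycle repressor were dips. CYCB2-1, a B-type cyclin that acts at entry into mitosis, was at 6.19 and 6.72 in UNM, 9.21 and 9.25 in BCP, and 6.43 and 6.71 in TCP, 6.84-fold and 6.33-fold higher in BCP. Its TCP level differed from its UNM level by 0.11 (limma adjusted p = 0.66). KIN14E, a microtubule motor of the kinesin-14 class, was at 4.32 and 4.20, then 7.46 and 7.61, then 4.10 and 4.43. It was detected above the reporter level in BCP only, at least 5.35-fold above UNM and at least 3.37-fold above TCP. KIN12E, of the kinesin-12 class that includes motors of the plant cell plate, was at 4.02 and 3.56, then 6.04 and 5.79, then 3.26 and 3.39, close to the reporter level in BCP. It was at least 1.75-fold above UNM and at least 1.1-fold above TCP. Under scaling by the hybridization controls its difference from UNM was 1.90, short of the rule.

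Of 32 measured kinesins 2 were peaks (2.17% of all genes) and 9 were above both other stages by test (7.69%). Against the average 10 were higher (20.7%) and 3 lower (12.9%), with a median difference of 0.37. The others above both included KIN13B, at 8.01 and 8.31, then 10.09 on both BCP arrays, then 7.86 and 7.52, and KIN14C, at 5.03 and 4.67, then 6.79 and 6.61, then 3.06 and 3.09. KIN7K alone was below both, at 7.95 and 7.85, then 6.02 and 6.01, then 9.38 and 9.40. KIN13B, KIN14C and the other genes in this account that are not members were chosen after their values were seen. Among 41 cyclins, cell cycle kinases and their inhibitors, CYCB2-1 was the single peak (2.17% of all genes). By test 2 were above both (7.69%) and 3 below both (1.94%). In this list 5 were higher (20.7%) and 7 lower than the average (12.9%), with a median difference of -0.28. Under scaling by the hybridization controls the list had 9 higher, 4 lower and 2 peaks. The second gene above both was CYCA2-1, an A-type cyclin, at 7.22 and 7.73 in UNM, 10.17 and 10.08 in BCP, and 8.49 and 8.30 in TCP. CYCB2-2, CYCD5-3 and the inhibitor KRP4 were below both, so that the related genes CYCB2-1 and CYCB2-2 differed in direction, although CYCB2-2 and CYCD5-3 were under the reporter level in TCP as well as in BCP. Scaling by the hybridization controls ended the call against TCP for CYCB2-2, KRP4 and CYCD5-3, at -0.27, -0.46 and 0.01, and the call of the kinesin KIN7F against UNM, at 0.82.

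**Figure D4:**
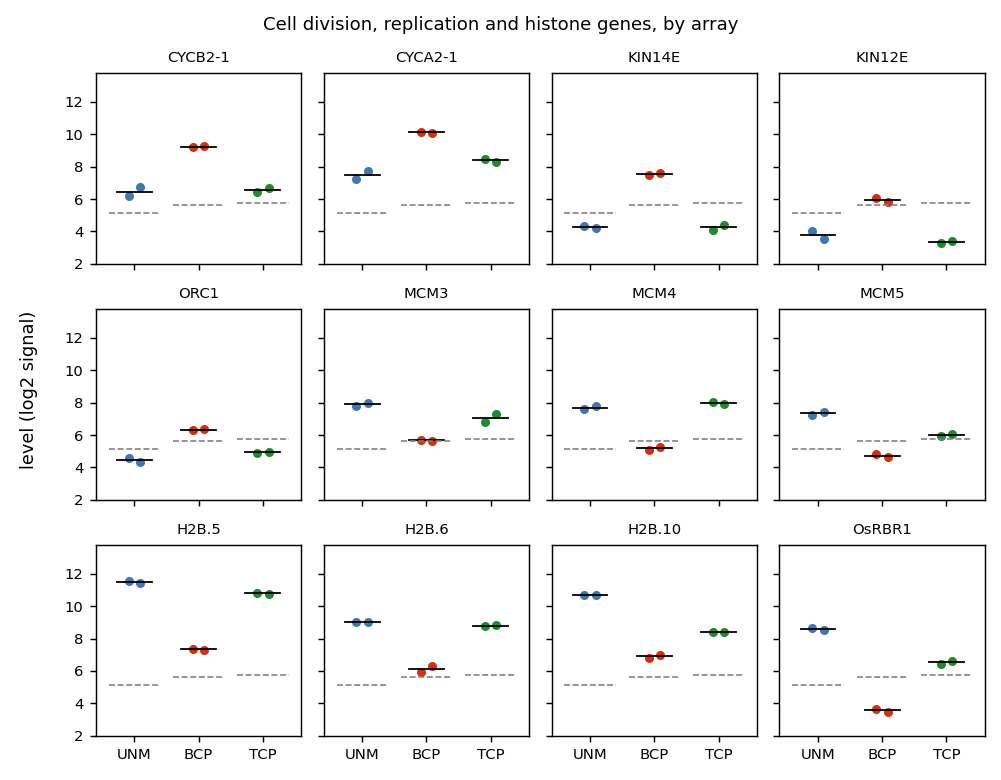
Levels (log2 signal, vertical axis) of 12 cell division, replication and histone genes by stage, with 1 point per array, the mean as a black bar and the reporter level of the stage as a dashed line. CYCB2-1, CYCA2-1, the kinesins KIN14E and KIN12E and ORC1 are highest in BCP, and MCM3, MCM4, MCM5, the H2B genes and OsRBR1 are lowest there.

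MCM4, a subunit of the helicase that unwinds DNA for replication, was at 7.60 and 7.76 in UNM, 5.09 and 5.27 in BCP, and 8.05 and 7.94 in TCP. Both BCP arrays were under the reporter level, at least 4.07-fold below UNM and at least 5.05-fold below TCP. Other subunits of the helicase followed part of the way: MCM3 was at a mean of 7.88 in UNM, then at 5.66 on both BCP arrays, then 6.82 and 7.28, and MCM5 at 7.25 and 7.42, then 4.81 and 4.64, then 5.93 and 6.03. MCM3 was below UNM by 2.22 and below TCP by 1.39 (limma adjusted p = 6.1e-05 and 0.00082). Its BCP level of 5.66 was at the edge of the reporter level of 5.65, which limits these sizes. MCM5 was called below both as well, but both its BCP arrays were under the reporter level, so the sizes of its differences are not given. MCM2 did not recover, at 7.92 and 8.10, then 5.57 and 5.53, then 5.22 and 5.24. ORC1, a subunit of the origin recognition complex, was the opposite, at 4.56 and 4.32, then 6.32 and 6.34, then 4.88 and 4.97. Of the 30 measured DNA replication genes 1 was a dip (0.397% of all genes), 4 were below both (1.94%) and 1 above both by test (7.69%). In this list 6 were higher (20.7%) and 7 lower than the average (12.9%), with a median difference of -0.14. The count below both was MCM3, MCM4, MCM5 and RPA32A, a subunit of the single-strand binding protein. Scaling by the hybridization controls gave 8 higher, 4 lower and 0 dips.

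H2B.5, a gene for core histone H2B, was at 11.54 and 11.43 in UNM, 7.36 and 7.31 in BCP, and 10.80 and 10.77 in TCP. It stayed above the reporter level at every stage and was 17.8-fold lower in BCP than in UNM (log2 difference -4.15, SE 0.12) and 10.9-fold lower than in TCP (-3.45). H2B.6 was at 9.04 and 9.03, then 5.96 and 6.30, then 8.80 and 8.81, a 7.49-fold and 6.38-fold difference. H2B.7 and H2B.10 were below both stages by test without being members, with H2B.10 at 10.68 and 10.67, then a mean of 6.91, then 8.43 and 8.41. Histone H2B genes are near-identical in sequence, and whether their probe sets share signal was not tested. CenH3, the centromeric histone and a marker planned for the generative and sperm cells, was no member, at mean levels of 6.99, 7.42 and 6.76. Of 31 measured histone and chromatin genes 2 were dips (0.397% of all genes), 5 were below both (1.94%) and 3 above both by test (7.69%). Against the average 5 were higher (20.7%) and 7 lower (12.9%), with a median difference of -0.01. With arrays scaled by the hybridization controls 10 were higher and 4 lower.

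OsRBR1, a retinoblastoma-related protein of the kind that restrains entry into DNA replication, was at 8.64 and 8.50 in UNM, 3.65 and 3.48 in BCP, and 6.44 and 6.64 in TCP, at least 7.56-fold and 1.85-fold lower in BCP. A second probe set of OsRBR1 was under the reporter level throughout, at 2.77 and 2.79 in UNM and 2.74 and 2.82 in BCP, and both probe sets are shared between transcripts. OsRBR2, the related gene, was at 7.65 and 7.88, then 8.28 and 7.98, then 6.98 and 7.15. Under scaling by the hybridization controls the dips of MCM4, H2B.6 and OsRBR1 kept their direction, but their differences from TCP came to -1.79, -1.66 and -1.96, inside the rule's threshold, while H2B.5 stayed a dip. The genes below both that are no members lost the call against TCP under that scaling, as for MCM3 and H2B.10, with differences of -0.37 and -0.49, and for MCM5, RPA32A and H2B.7, whose BCP levels were at or under the reporter level.

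Signalling genes appeared on both sides. Protein phosphatases of the 2C class remove phosphate from serine and threonine residues, and the class includes regulators of hormone and stress responses. OsPP2C39 was at 7.51 and 7.46 in UNM, 11.14 and 11.18 in BCP, and 5.46 and 5.89 in TCP, 12.8-fold over UNM and at least 41.6-fold over TCP, on a probe set shared between transcripts. OsPP2C57 was at 9.41 and 9.51, then 12.28 and 12.40, then 9.51 and 9.49, so that it was well detected at each stage and 7.34-fold and 7.16-fold higher in BCP. OsPP2C11 and OsPP2C62 were above the reporter level in BCP only, with OsPP2C11 at 3.74 and 3.61, then 7.05 and 6.98, then 3.46 and 3.59.

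OsPP2C64 was the mirror image, a dip at 8.41 and 8.39 in UNM, 4.28 and 4.80 in BCP, and 8.31 and 8.52 in TCP. Its TCP level differed from its UNM level by 0.014 (limma adjusted p = 0.96), and its signal in BCP was at least 6.71-fold and 6.78-fold lower. Of the 56 measured phosphatases of the class 4 were peaks (2.17% of all genes) and 1 a dip (0.397%). By test 6 were above both (7.69%) and 6 below both (1.94%). Against the average 12 were higher (20.7%) and 17 lower (12.9%), with a median difference of 0.05. Under scaling by the hybridization controls 19 were higher and 7 lower. Calls over all probe sets moved the same way, to 8187 higher and 2318 lower.

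CPK21, a calcium-dependent protein kinase, dipped from 8.60 and 8.75 in UNM to 5.22 and 5.21 in BCP and reached 11.60 and 11.46 in TCP. It was at least 8.13-fold lower in BCP than in UNM and at least 58.7-fold lower than in TCP, and the TCP level exceeded the UNM level by 2.85 (limma adjusted p = 1.7e-06). CML15, a calmodulin-like calcium sensor, was at 9.01 and 9.10, then at a mean of 6.96, then at 10.08 on both TCP arrays. CBL5 (also listed under the name CBL2), a calcineurin B-like calcium sensor, was a peak at 3.61 and 3.83, then 6.35 and 6.28, then 3.55 and 3.99. It was under the reporter level in UNM and TCP and at least 2.3-fold and 1.45-fold higher in BCP. Of 78 measured calcium sensors and kinases 1 was a peak (2.17% of all genes) and 2 were dips (0.397%), and 4 were above both (7.69%) and 4 below both (1.94%). Against the average 17 were higher (20.7%) and 11 lower (12.9%), with a median difference of 0.03.

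Cytokinin activation genes of the LOG family, whose enzymes release free cytokinin from its nucleotide, were found on either side as well. LOGL1 was at 9.16 and 9.17 in UNM, 11.56 and 11.47 in BCP, and 8.13 and 8.15 in TCP. LOG was at 9.67 and 9.29, then 4.81 and 4.73, then 6.55 and 7.35, at least 14.2-fold lower in BCP than in UNM and at least 2.46-fold lower than in TCP. EIL1A, a transcription factor of the ethylene response, dipped from 8.42 and 8.59 to 4.48 and 4.71 and was at 9.22 and 9.12 in TCP, at least 7.24-fold and 11.4-fold lower in BCP, although its other probe set was level at 5.47 to 6.03 on all 6 arrays. CPS2, an ent-copalyl diphosphate synthase of phytoalexin synthesis that a gibberellin list picks up by its name, was a peak at 3.37 and 3.08, then 7.48 and 7.62, then 5.19 and 5.63. It was the single peak (2.17% of all genes) among 48 jasmonate and gibberellin genes, of which 3 were above both (7.69%) and 2 below both (1.94%). Against the average 7 were higher (20.7%) and 10 lower (12.9%), with a median difference of -0.22. With arrays scaled by the hybridization controls 8 were higher and 8 lower, with 2 peaks.

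HOX2, a homeodomain-leucine zipper protein, was at 5.41 and 5.53 in UNM, 9.14 and 9.05 in BCP, and 5.01 and 6.05 in TCP, 12.3-fold over UNM. OsC3H54, a zinc finger protein of the CCCH class, was at 7.68 and 7.44, then 10.21 and 10.46, then 4.02 and 3.71, so that its fall after BCP took it under the reporter level. SPL15, of the SBP-box family, was at 8.31 and 8.27, then 10.61 and 10.92, then 7.57 and 7.65. These were the 3 peaks, with 0 dips, among the 188 measured genes of a list of other transcription factor families, which holds neither EIL1A nor the MADS-box genes, beside peaks at 2.17% and dips at 0.397% of all genes. Among these genes 6 were above both (7.69% of all genes) and 7 below both (1.94%). Against the average 25 were higher (20.7%) and 30 lower (12.9%), with a median difference of -0.18. Scaling by the hybridization controls gave 32 higher and 22 lower, and calls over all probe sets moved the same way. Among 31 MADS-box genes the single peak was MADS56, a regulator of flowering time, at 5.80 and 5.27, then 8.23 and 7.99, then 4.67 and 4.78. Of those 31 genes 3 were higher (20.7% of all genes) and 8 lower than the average (12.9%), with a median difference of -0.01. Under the same scaling 5 were higher and 5 lower.

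Redox and membrane transport genes were represented by a few peaks. APX2, a cytosolic ascorbate peroxidase that removes hydrogen peroxide, was at 9.69 and 9.78 in UNM, 13.16 and 13.17 in BCP, and 11.13 and 11.15 in TCP on its brightest probe set. It was a member on 3 of 4 probe sets, with margins of 2.02, 2.65 and 4.33, and the fourth was under the reporter level on all arrays. APX4, another ascorbate peroxidase, was at 6.77 and 6.69, then 8.80 and 9.09, then 5.02 and 5.17. GLDH1, the last enzyme of ascorbate synthesis, was at 7.89 and 7.72, then 10.19 and 10.29, then 7.03 and 6.57. Of 63 measured redox genes and metallothioneins, a list without GLDH1, 2 were peaks (2.17% of all genes), 11 were above both (7.69%) and 2 below both (1.94%). Against the average 20 were higher (20.7%) and 10 lower (12.9%), with a median difference of 0.18.

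ABCG36, an ABC transporter of the pleiotropic drug resistance type, was at 6.28 and 6.61 in UNM, 8.89 and 8.74 in BCP, and 6.61 and 6.22 in TCP. YSL13, of the yellow stripe-like family of metal chelate carriers, was at 3.78 and 4.45, then 6.66 and 6.34, then 4.71 and 4.12. HAK10, a potassium transporter, was a member on the probe set Os.5614.1.S1_x_at, at 4.58 and 4.84, then 7.50 and 7.47, then 5.16 and 5.36. On these probe sets both were under the reporter level in UNM and TCP. In BCP YSL13 was at least 2.61-fold above UNM and 1.64-fold above TCP, and HAK10 at least 5.18-fold and 3.26-fold. The brightest probe set of HAK10, just outside the rule, had means above the reporter level there, at 5.31 in UNM and 6.57 in TCP. On it BCP was 9.55-fold above UNM and 4.0-fold above TCP. Of 98 measured ion and nutrient transporters 2 were peaks (2.17% of all genes), 12 were above both (7.69%) and 0 below both (1.94%). Against the average 19 were higher (20.7%) and 16 lower (12.9%), with a median difference of -0.13. Scaling by the hybridization controls gave 8 peaks, 23 higher and 8 lower. Over all probe sets it gave 886 peaks, against 651 without it.

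Peaks with roles in fatty acid synthesis and in the turnover and sorting of nucleic acids and proteins were of several forms. ENR (gene 4345286), named for the enoyl reductase of fatty acid synthesis, and BBD2, of a family of bifunctional nucleases, fell sharply after BCP. ENR was at 8.09 and 8.37 in UNM, 11.12 and 10.95 in BCP, and 4.71 and 5.18 in TCP, at least 38.2-fold lower there. BBD2 was at 6.10 and 6.25, then 10.01 and 9.98, then 4.50 and 4.25. RAD23, a receptor that carries ubiquitinated proteins to the proteasome, was a member on 2 of 3 probe sets, with the brightest at 8.31 and 8.48, then 10.83 and 10.79, then 8.30 and 8.31. CLPB-C, a protein disaggregase of the chloroplast, was at 8.57 and 8.69, then 10.83 and 10.88, then 8.41 and 7.90. It was the single peak (2.17% of all genes) among 45 heat shock genes, of which 8 were higher (20.7%) and 4 lower than the average (12.9%). RMR1, a receptor for sorting proteins to the vacuole, was a member on 2 probe sets, at 3.87 and 3.91, then 7.85 and 7.87, then 3.92 and 3.95 on Os.20625.1.S1_at, while the other 2 had margins of 1.68 and 1.93.

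Most genes that fold proteins in the endoplasmic reticulum were higher in BCP than the average without being peaks. Of 23 measured, 18 were higher (20.7% of all genes) and 1 lower (12.9%), with a median difference of 1.96, but 3 were above both stages by test (7.69%). OsPDIL1-5 alone was a peak (2.17%), at 4.66 and 5.11, then 6.73 and 7.15, then 4.12 and 4.07. It was under the reporter level in UNM and TCP and at least 3.55-fold and 2.23-fold higher in BCP. The median level of the list was 10.94 in UNM, 11.46 in BCP and 7.81 in TCP, so that the low stage was TCP. OsPDIL2-1, a protein disulfide isomerase, was a member on its probe set Os.5618.1.S1_at, at 9.69 and 9.67, then 11.64 and 11.74, then 6.42 and 6.60, with a margin of 2.01, but not on its brightest probe set, where the margin was 0.98. Ribosomal protein genes showed the same order of calls, with 13 of 25 higher than the average, 0 lower, 0 above both by test and 0 peaks, and a median difference of 1.16. Their median level was 11.48 in UNM, 11.04 in BCP and 7.44 in TCP, so that it was highest in UNM and lowest in TCP. OsPDIL1-5, OsPDIL2-1, CLPB-C and APX4 missed the rule against UNM under scaling by the hybridization controls, with differences of 1.82, 1.78, 1.99 and 1.98.

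Cell wall, sugar and defence genes among the peaks are given here to complete the named members, and were chosen after their values were seen. BC1L6, a COBRA-like protein of the cell wall, was at 5.37 and 5.62 in UNM, 8.82 and 8.74 in BCP, and 4.93 and 4.53 in TCP. UGE-4, a UDP-glucose 4-epimerase that interconverts the sugar donors of glucose and galactose, was at 8.96 and 8.86, then 11.29 and 11.33, then 9.07 and 9.13. GT43H, a glycosyltransferase, was at 5.36 and 4.96, then 7.76 and 7.38, then 5.15 and 5.21. TCP minus UNM was 0.19 for UGE-4 (limma adjusted p = 0.22), whereas the TCP levels of BC1L6 and GT43H were under the reporter level.

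HXK3 (also listed as HXK2), a hexokinase, was a member on 1 of 2 probe sets, at 6.04 and 6.09, then 8.47 and 8.52, then 6.03 and 5.60, while its brightest probe set had a margin of 0.98. CEBIP, a receptor for chitin fragments in fungal defence, was at 8.51 and 8.59, then 12.42 and 12.31, then 9.58 and 9.66, 14.1-fold over UNM and 6.72-fold over TCP. GLYI-11, a glyoxalase, was at 9.69 and 9.73, then 12.37 and 12.50, then 10.33 and 10.46. The further named peaks were 4CL.2, a 4-coumarate ligase of phenylpropanoid synthesis, MCCA, a carboxylase subunit of leucine breakdown, ETF-QO, an oxidoreductase of the mitochondrial membrane, and IMCEL1, RAG1, S1FA2, UEL-3, XBOS33 and rgp2, with margins from 2.06 for RAG1 to 3.15 for rgp2. The brightest probe sets of rgp2 and XBOS33 were not members, with margins of 1.34 and 1.03. ETF-QO and RAG1 rested on low signals, with BCP means of 6.54 and 5.95, and were under the reporter level in UNM and TCP. In BCP ETF-QO was at least 2.69-fold above UNM and 1.69-fold above TCP, and RAG1 at least 1.79-fold and 1.13-fold.

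**Figure D5:**
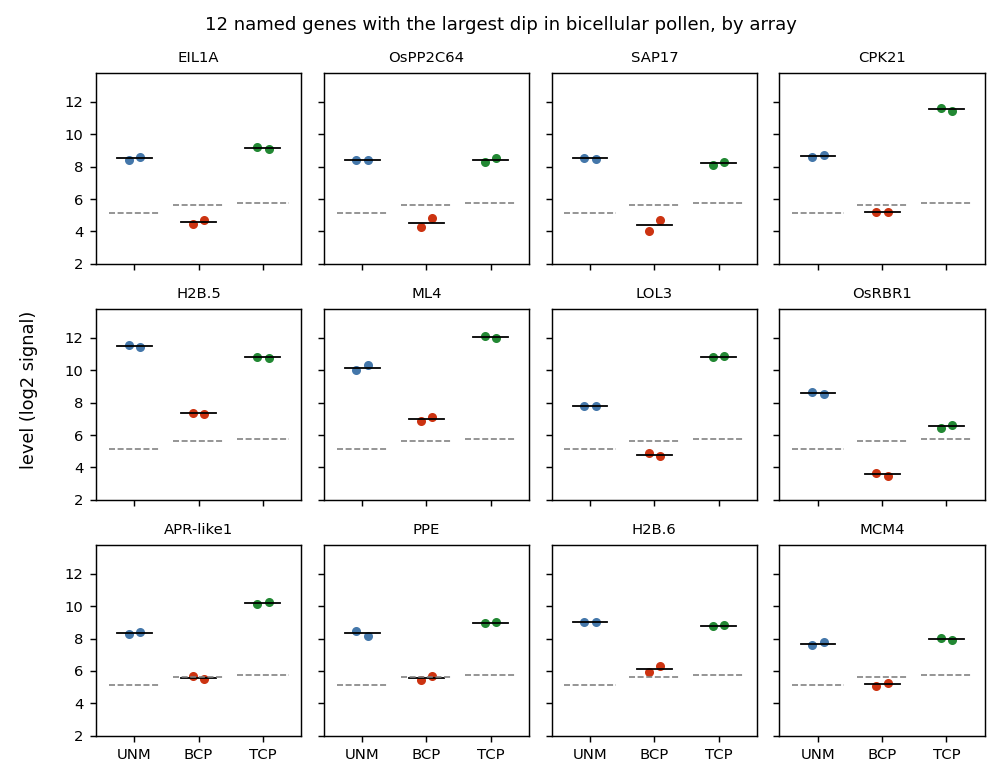
Levels (log2 signal, vertical axis) of the 12 named genes with the largest dips, by stage, with 1 point per array, the mean as a black bar and the reporter level of the stage as a dashed line. Both BCP points lie below all 4 other points in every panel, and H2B.5, H2B.6 and ML4 stay above the reporter level in BCP.

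Several of the remaining dips had their highest level in TCP. ML4, an RNA-binding protein of the MEI2-like family, was at 9.99 and 10.33 in UNM, 6.86 and 7.11 in BCP, and at a mean of 12.06 in TCP, 9.01-fold and 33.8-fold lower in BCP. LOL3, a zinc finger protein related to LSD1 of cell death control, was at 7.81 and 7.76, then 4.89 and 4.70, then 10.81 and 10.89. PPT2, a phosphoenolpyruvate translocator of the plastid envelope by its name, was at 6.55 and 6.96, then 4.20 and 4.46, then 10.99 and 11.06, at least 41.5-fold lower in BCP than in TCP. APR-like1, named for its likeness to adenylylsulfate reductase, was at 8.29 and 8.38, then 5.67 and 5.50, then 10.10 and 10.26 on a shared probe set, and neither of its other 2 probe sets was a dip. The TCP level exceeded the UNM level by 1.91 for ML4, 3.06 for LOL3, 4.27 for PPT2 and 1.85 for APR-like1 (limma adjusted p = 5.8e-05, 1.3e-06, 1.1e-06 and 2.1e-05).

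SAP17, a stress-associated zinc finger protein, and PPE, a ribulose-phosphate 3-epimerase of the pentose phosphate pathway, differed between UNM and TCP by less than the minimum of 1 for a call. TCP minus UNM was -0.32 for SAP17 and 0.65 for PPE (limma adjusted p = 0.24 and 0.011). SAP17 was at 8.56 and 8.49, then 4.05 and 4.68, then 8.12 and 8.29, and PPE at 8.48 and 8.18, then 5.46 and 5.72, then 8.96 and 9.01. DI19-3, a zinc finger protein named for induction by dehydration, was closer to LOG in form, at 9.85 on both UNM arrays, then 5.77 and 5.44, then 7.75 and 7.93. Under scaling by the hybridization controls DI19-3 and LOG were 1.22 and 1.16 below TCP, so that neither met the rule.

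Scaling mattered to a part of the named members. Of the 49 named genes with a peak on their brightest probe set (1.99% of the named genes measured), 40 kept it under scaling by the hybridization controls, and of the 16 named genes with a dip (0.651%) 11 kept it. The mean signal of the 27 control probe sets behind that scaling was 8.82 and 8.31 in UNM, 8.88 and 8.71 in BCP, and 9.85 and 9.77 in TCP, so the scaling lowers TCP against the other stages. KIN7K and OsSIP2;1 became dips and the brightest probe set of HAK10 a peak under it.

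A gene's probe sets did not always give the same answer. Of 105 peak genes with several probe sets, all were peaks for 12 and only some for 93, and of 18 such dip genes all were dips for 3 and some for 15. Among the peak probe sets 141 were shared between transcripts by design, and among the dip probe sets 17. Peak genes were placed next to each other on the chromosome in 8 pairs, among them HOX2 with gene 4340071, OsPDIL1-5 with gene 4340224, ENR with gene 4345285 and AGPS2 with gene 4345338. Of 566 measured direct neighbours of peak genes 16 were peak genes themselves (2.83%), beside 2.37% of all measured genes. Of 100 neighbours of dip genes 0 were dip genes, beside 0.402% of all measured genes, and nothing is read from so small a number.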

How the data were processed

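RNA of 6 pollen samples was measured on Affymetrix rice arrays from biotin-labelled cRNA, per the labels' protocols. Values were deposited as log2 signals that the authors computed by RMA, according to the submitters' processing notes. The sources used here do not give its version, its probe definitions or the set of arrays that it was run on. No further normalisation was applied before the main tests.

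The table held 57381 probe sets. Its 123 Affymetrix controls and 64 reporter probe sets were used as controls only, and 57194 were tested. The platform annotation, dated 2016 and matched by gene ID to RefSeq names, gave 1 gene to 22436 probe sets, several to 95 and none to 34663, and covered 17905 genes, of which 2457 have a name. A gene is represented by its brightest probe set over all arrays.

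A linear model with stage as the factor was fitted to all 6 arrays in limma 3.58.1 (R 4.3.3; residual degrees of freedom 3, prior 3.87, median SE of a stage difference 0.156) and tested on simulated data. Tests were two-sided, with Benjamini-Hochberg adjustment over all tested probe sets, and calls needed an adjusted p under 0.05 and a difference of at least 1. "Above both" and "below both" need both pairwise calls in the same direction. Contrasts with a stage in common share its arrays.

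The members and gene lists were chosen with earlier results of these data known, and memberships of the lists were corrected for wrong symbol matches after their tables had been seen. Named genes were the 12 largest named peaks and dips by margin, up to 3 members per list, the anther wall markers, the 2 members on either side of each threshold and the 2 largest unnamed members; other named members were added after their values were seen. No measured gene carried the name of a generative or sperm cell marker of the planned list other than CenH3, which was not a member. Alternatives covered normalisation, filters, thresholds, the variance prior, a replicate block and leaving out each array. Promoter motifs and protein sequences were not analysed here.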

Additional observations from a re-analysis of the deposited data

How the results depend on the processing

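The members depend first on the threshold: a minimum difference of 1.5 gave 1243 peaks and 197 dips, and 3 gave 192 and 29. For the tests, no minimum difference gave 9441 higher, 8993 lower, 4249 above both and 1894 below both, and a minimum of 2 gave 1936, 1057, 651 and 94. With 1 probe set per gene, by construction fewer, the counts were 3700 higher, 2312 lower, 1377 above both and 388 peaks. Scaling by the hybridization controls gave 2318 lower and 213 below both; without the cre spikes, an alternative chosen after seeing the data, it gave 8914 higher, 2067 lower and 190 below both, and the cause was not tested. It left 555 of the 651 peaks and 62 of the 94 dips in place (544 and 53 without cre). Higher calls made up 51.2% with no minimum difference, 77.9% and 81.2% under the control scalings and 57.0% to 64.7% under the other settings that kept all arrays. With stage means floored at the reporter level, also chosen after seeing the data, 54 dips and 497 peaks met the rule. Leaving out each array in turn gave 5627 to 5830 higher, 3709 to 3823 lower, 2221 to 2326 above both, 489 to 573 below both, 645 to 672 peaks and 92 to 107 dips. Deviations between replicates were barely correlated across stages (-0.05, -0.07 and 0.01), which cannot settle whether the replicate numbers pair the samples. A fit with the replicate as a block gave 5744 higher, 3786 lower, 2310 above both and 497 below both. Of 2561 values of 156 single probe sets under the alternatives, 2520 kept their call or lack of one, 20 gained a call and 21 lost it. In 0 cases did a called difference reverse. Values without a call in either fit were counted as kept whatever their direction. The planned counts of promoter motifs were not run, because no sequences were at hand. Precision is limited by 2 arrays per stage and, for 65 dips, by a BCP signal at or under background.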

Other observations

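Several gene groups known from pollen held no peak or dip by the brightest probe set, and are given here as counts of genes higher and lower in BCP than the average of both other stages, beside 20.7% and 12.9% of all genes. Such counts also take in genes that change steadily from UNM to TCP. Among 59 auxin genes 2 were higher and 17 lower, with a median difference of -0.58, and among 25 aquaporins 3 were higher and 10 lower, with a median of -0.43. Of 14 autophagy and ubiquitin genes 1 was higher and 6 lower (median -0.82), with 0 below both by test and median levels of 9.72 in UNM, 8.24 in BCP and 6.77 in TCP. Of 11 anther wall genes 1, GAMYB, was higher and 7 were lower (median -1.41), with 0 below both. GAMYB itself fell, with means of 9.17, 8.37 and 4.49. Translation factors had the reverse count, 7 of 11 higher and 0 lower (median 1.31). Of these 0 were above both, and their median level was highest in UNM, at 11.31, 10.79 and 8.62. Of 44 genes of sugar transport and sucrose use 11 were higher and 10 lower (median -0.11), and of 33 actin genes and actin regulators 12 and 5 (median -0.03).

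The other groups without a member were expansins (3 higher and 7 lower of 29), the cellulose synthase family (5 and 5 of 28), beta-glucosidases (4 and 5 of 27), tubulins (1 and 0 of 9), glycolysis and fermentation (1 and 1 of 12), Rac/Rop GTPases (1 and 1 of 7), the proteasome (3 and 0 of 16), MAP, SAPK and NEK kinases (5 and 7 of 31), meiosis (3 and 0 of 10) and green tissue (0 and 2 of 11). Of the meiosis genes 1, SPO11-4, a relative of the enzyme that breaks DNA for recombination, was above both other stages by test, with mean levels of 6.34 in UNM, 8.25 in BCP and 5.72 in TCP, and it was chosen after its values were seen. Under scaling by the hybridization controls, 3 of these groups gained members: aquaporins 2 peaks and 1 dip, beta-glucosidases 2 peaks, and MAP, SAPK and NEK kinases 2 peaks, the last with 6 higher and 4 lower. Over all probe sets that scaling gave 886 peaks and 75 dips, against 651 and 94 without it.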
